A study of Mus musculus with 6 samples.

Results

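The 41 genes described here belong to the ATF4 response and to the unfolded protein response of the endoplasmic reticulum (ER). They were listed by symbol and fall into an ATF4 arm of 22 genes, mainly amino acid and stress genes, and an ER arm of 19 genes, mainly chaperones and degradation factors. All 41 were among the 23329 symbols counted, and all 41 passed the filter on low counts that left 14838 genes for testing. RNA was sequenced from uncultured brain endothelial cells of C57BL/6 mice 8 weeks old, isolated with magnetic beads (MACS). A total of 3 libraries came from mice labelled GLUT1EC-/-, with an endothelial-cell-specific knockout of Slc2a1, the gene of the glucose carrier GLUT1, and 3 from WT littermates. The promoter that drives the Cre and the bead antibody are not given in the sources used here. The comparison set the amino acid arm against the chaperone arm, since a lack of glucose can impair the attachment of sugar chains to proteins in the ER.

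When amino acids run short or proteins misfold in the ER, kinases phosphorylate the translation factor eIF2, general translation slows and the transcription factor ATF4 is made from its stored mRNA. ATF4 then drives genes for amino acid synthesis, uptake and redox control. Misfolded ER proteins also activate ATF6 and, through IRE1, the splicing of Xbp1 mRNA, and these factors drive ER chaperones and the machinery that exports misfolded proteins for degradation. Much of this control acts on translation and splicing, which a count of reads per gene does not measure.

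Total counts ran from 35323299 to 37868681 in the libraries labelled GLUT1EC-/- and from 31874662 to 39424384 in WT. The targeted gene did not separate the groups: Slc2a1 stood at 3735, 5414 and 3893 CPM (counts scaled to the library total times its TMM factor, which balances the bulk of genes between libraries) in GLUT1EC-/- 1 to 3 and at 3984, 4479 and 4172 CPM in WT 1 to 3 (log2 fold change 0.05, SE 0.18, adjusted p = 0.921 by edgeR). Which exons the knockout removes is not given in the sources used here, and all differences are taken by the genotype written on each library. The endothelial genes Pecam1 and Cdh5 stood between 1135 and 2418 CPM in all 6 libraries. Summed levels of 8 endothelial markers were 10262, 11876 and 10149 CPM in GLUT1EC-/- 1 to 3 and 12009, 11436 and 12026 CPM in WT 1 to 3. GLUT1EC-/- 1 and 3 lay below each WT library there. The median log2 fold change of these markers was -0.07, and 0 passed by edgeR in either direction. GLUT1EC-/- 2 stood apart, with a scaling factor of 0.884, the lowest of the 6, and a mean correlation with its own group of 0.964 across genes, against 0.972 to 0.989 for the others. Markers of other cells differed between the groups: summed levels of 6 fibroblast markers were 156 to 362 CPM in libraries labelled GLUT1EC-/- and 86.7 to 102 CPM in WT, of 10 microglia markers 767 to 1591 and 494 to 586 CPM, of 7 astrocyte markers 127 to 153 and 86.1 to 107 CPM, and of 5 cycling markers 17.1 to 58.7 and 4.11 to 8.44 CPM. Of these, 1 fibroblast, 3 microglia, 1 astrocyte and 1 cycling marker rose by edgeR, and 3 of 6 monocyte markers fell, with sums of 6.09 to 17.8 CPM in libraries labelled GLUT1EC-/- and 44.5 to 130 CPM in WT. The astrocyte marker that rose was Gfap. Among the others, Slc1a2, Slc1a3 and S100b were lower by value and Aqp4, Gja1 and Aldh1l1 higher. The part of these other cell types in the results below was not tested. In such bulk samples, fewer cells of a type and less RNA per cell cannot be told apart.

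No member of either arm passed the test over all genes (the quasi-likelihood F test of edgeR, p adjusted by Benjamini-Hochberg, under 0.05), with 0 of 41 higher and 0 of 41 lower in libraries labelled GLUT1EC-/-. Over all 14838 genes, 1.31% passed, 0.863% higher and 0.445% lower. At an unadjusted p under 0.05 there were 9 members, 7 higher and 2 lower, where 14.5% of all genes reached it, 8.16% higher and 6.31% lower. Groups did not overlap for 10 of 41 members (24.4%), a share near the 22.9% of all genes tested. DESeq2 called 3 members, Psat1, Phgdh and Trib3, at a background of 5.93%, and limma-voom called 0. With 3 libraries a group the precision differed between the arms: the 95% interval of the fold change lay within 2-fold in both directions for 12 of 22 genes of the ATF4 arm and 17 of 19 of the ER arm. The plot of fitted changes shows this width.

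**Figure D1:**
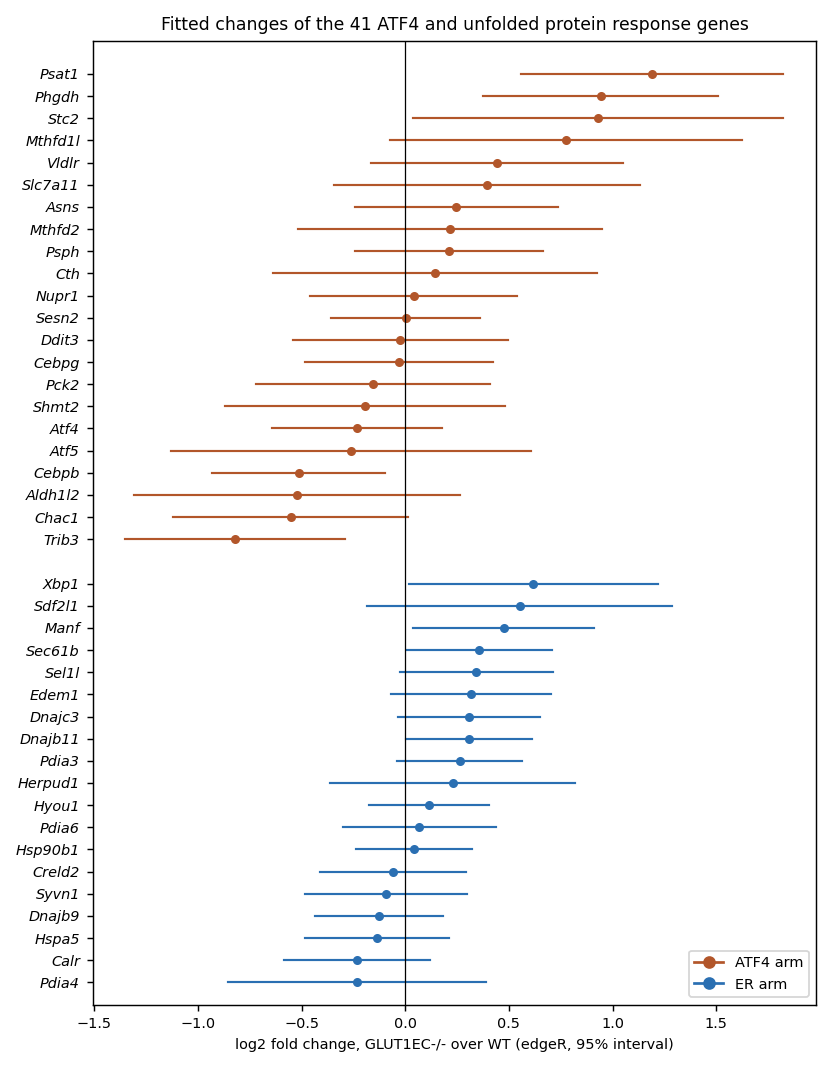
Fitted log2 fold change of each of the 41 genes, libraries labelled GLUT1EC-/- over WT (x axis), with its 95% interval from edgeR (lines), 3 libraries a group; orange marks the ATF4 arm and blue the ER arm. Changes of the ATF4 arm run from -0.82 for Trib3 to 1.19 for Psat1, and those of the ER arm from -0.23 to 0.62; none passed the adjusted threshold.

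The 2 arms differed in how they were spread. In the ATF4 arm 12 genes were higher and 10 lower by value, with a median log2 fold change of 0.02 and a middle 50% from -0.22 to 0.36. In the ER arm 13 were higher and 6 lower, with a median of 0.23 and a middle 50% from -0.08 to 0.33. Over all genes tested the median was 0.01 and the middle 50% ran from -0.21 to 0.23. The difference between the arms' medians was -0.21, which is given without a test, since the genes were chosen with earlier results known. With library size alone as the scaling, the medians were -0.02 in the ATF4 arm and 0.15 in the ER arm.

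Relative to the WT mean of each gene, on the log2(CPM + 0.5) scale, the ER arm averaged 0.14, 0.20 and 0.09 in GLUT1EC-/- 1 to 3 and 0.05, -0.02 and -0.03 in WT 1 to 3. All 3 libraries labelled GLUT1EC-/- lay above the WT range with TMM scaling, but with library size alone only GLUT1EC-/- 1 and 3 did: the scores were then 0.15, -0.0047 and 0.13 in GLUT1EC-/- 1 to 3 and 0.05, -0.03 and -0.01 in WT 1 to 3. With that scaling the mean over all genes tested was 0.03, -0.23 and 0.07 in GLUT1EC-/- 1 to 3 and -0.01, -0.01 and 0.02 in WT 1 to 3. With TMM scaling it was 0.02, -0.05 and 0.03 in GLUT1EC-/- 1 to 3 and -0.01, 0.00 and 0.01 in WT 1 to 3. GLUT1EC-/- 1 and 3 thus lay above the WT range of that mean under both scalings. The ATF4 arm averaged 0.08, -0.07 and 0.15 in GLUT1EC-/- 1 to 3 and -0.02, 0.01 and 0.02 in WT 1 to 3. Libraries labelled GLUT1EC-/- lay on both sides of WT there, with GLUT1EC-/- 2 the lowest of the 6. The ATF4 mean minus the ER mean was -0.06, -0.27 and 0.07 in GLUT1EC-/- 1 to 3 and -0.08, 0.03 and 0.05 in WT, so the order of the arms changed from library to library.

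**Figure D2:**
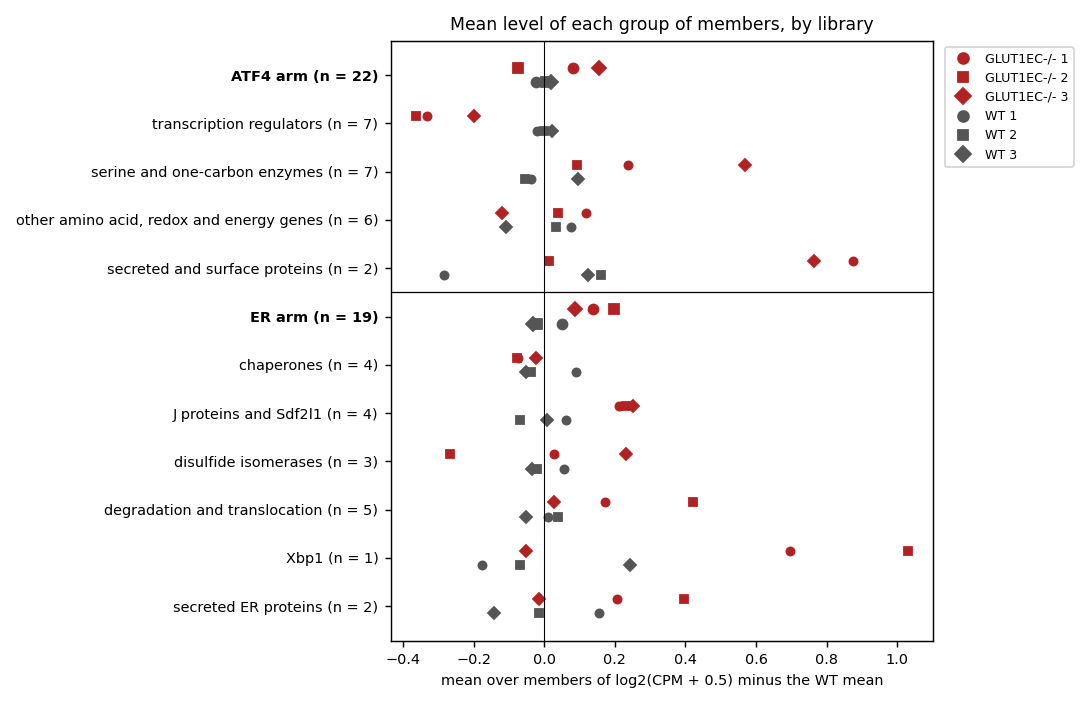
Mean over members of log2(CPM + 0.5) minus the WT mean of each gene (x axis), for each arm and each functional group of members (y axis), 1 point a library; red marks libraries labelled GLUT1EC-/- and grey WT. The ER arm lies at 0.09 to 0.20 in the 3 libraries labelled GLUT1EC-/- with this TMM scaling (GLUT1EC-/- 2 falls inside the WT range with library size alone), while the ATF4 arm runs from -0.07 to 0.15.

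Within the ATF4 arm, the transcription regulators leaned lower by value and the serine enzymes higher. ATF4 and its partners control transcription of the rest of the arm. Of 7 such regulators, 0 passed and 6 were lower by value, with a median log2 fold change of -0.23. Atf4 itself, the factor at the head of the response, was at 867, 1115 and 750 CPM in GLUT1EC-/- 1 to 3 and 1017, 992 and 1206 CPM in WT 1 to 3 (log2 fold change -0.23, SE 0.18, adjusted p = 0.591 by edgeR). The groups overlapped, with GLUT1EC-/- 2 above 2 of the WT libraries, and the log2 fold change was -0.41 without GLUT1EC-/- 2 and -0.11 without GLUT1EC-/- 3. Ddit3, which encodes the pro-death factor CHOP, was at 38.4, 59.3 and 31.6 CPM in GLUT1EC-/- 1 to 3 and 45.1, 39.6 and 46.7 CPM in WT. Its highest and lowest libraries were both labelled GLUT1EC-/-, and its log2 fold change was -0.02 (95% interval -0.54 to 0.49).

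Trib3 and Cebpb were the regulators with groups that did not overlap. Trib3 encodes a pseudokinase that ATF4 and CHOP induce and that feeds back on ATF4. It stood at 5.72, 3.76 and 4.58 CPM in GLUT1EC-/- 1 to 3 and at 9.62, 8.03 and 7.19 CPM in WT 1 to 3. Each library labelled GLUT1EC-/- was below each WT library, and the means were 4.69 ± 0.98 and 8.28 ± 1.23 CPM (SD, n = 3 each), a log2 fold change of -0.82 (SE 0.23, adjusted p = 0.153 by edgeR). DESeq2 called it (adjusted p = 0.0229). Cebpb, a bZIP factor that pairs with ATF4, was at 51.6, 79.0 and 53.6 CPM in GLUT1EC-/- 1 to 3 and 81.9, 89.0 and 92.3 CPM in WT (log2 fold change -0.52, SE 0.18, adjusted p = 0.242 by edgeR). GLUT1EC-/- 2 lay just under the lowest WT library, and without it the log2 fold change was -0.74 (adjusted p = 0.00399 by edgeR). Levels of 9 immediate early and heat shock genes, which cell dissociation induces, moved beside Cebpb, with sums of 18699, 24976 and 19673 CPM in GLUT1EC-/- 1 to 3 and 25094, 24696 and 28835 CPM in WT. Their part was not tested.

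The other 3 regulators were Atf5, a stress factor related to ATF4, Cebpg, a dimer partner of ATF4, and Nupr1, a small stress-induced chromatin protein. Their log2 fold changes were -0.26, -0.03 and 0.04, and each had overlapping groups. Atf5 had the widest spread of these: 26.5, 18.0 and 57.5 CPM in GLUT1EC-/- 1 to 3 and 34.4, 40.5 and 47.5 CPM in WT.

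Of the serine and one-carbon enzymes, 0 of 7 passed and 5 were higher by value, with a median of 0.22. The highest fitted changes of all 41 genes belonged to Psat1 and Phgdh, successive enzymes that make serine from the glycolytic intermediate 3-phosphoglycerate. Psat1 (phosphoserine aminotransferase) had 15.04, 9.92 and 19.5 CPM in GLUT1EC-/- 1 to 3 and 5.48, 6.02 and 7.96 CPM in WT 1 to 3. Its groups did not overlap, and means were 14.8 ± 4.8 and 6.48 ± 1.30 CPM (SD, n = 3 each), a log2 fold change of 1.19 (SE 0.28, 95% interval 0.56 to 1.82, adjusted p = 0.0900 by edgeR). Phgdh (phosphoglycerate dehydrogenase, the entry enzyme) had 7.36, 5.65 and 9.42 CPM in GLUT1EC-/- 1 to 3 and 3.68, 3.59 and 4.39 CPM in WT. Its log2 fold change was 0.94 (SE 0.25, adjusted p = 0.129 by edgeR), again with every library labelled GLUT1EC-/- above every WT library.

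Both genes had the same order among the libraries labelled GLUT1EC-/-, with the third highest and the second lowest. DESeq2 called both (adjusted p = 0.00193 and 0.00996). Without GLUT1EC-/- 2, edgeR called both as well, at log2 fold changes of 1.40 and 1.10 (adjusted p = 0.00454 and 0.0118 by edgeR), where 5.73% of all genes tested passed. Psat1 lies on the minus strand of chromosome 19 (GRCm38, 15904678 to 15947337) and Phgdh on the minus strand of chromosome 3 (98313170 to 98339990), and neither shares exon positions with another coding gene. Astrocytes are known for high Phgdh, and the astrocyte marker Gfap moved beside both genes, with 36.4, 36.6 and 59.8 CPM in GLUT1EC-/- 1 to 3 and 5.60, 5.90 and 5.44 CPM in WT (log2 fold change 2.97, adjusted p = 0.00669 by edgeR). Gfap was the 1 of 7 astrocyte markers to pass: Slc1a2, Slc1a3, S100b, Aqp4 and Gja1 had log2 fold changes of -0.90, -0.42, -0.29, 0.26 and 0.31, and Aldh1l1 stood at 5.38 to 7.18 CPM in libraries labelled GLUT1EC-/- and 3.59 to 5.03 CPM in WT. The summed fibroblast markers, at 195, 156 and 362 CPM in GLUT1EC-/- 1 to 3, and the summed microglia markers, at 989, 767 and 1591 CPM, ordered these libraries as Psat1 and Phgdh did. The summed neuron markers did so too, at 65.2, 63.2 and 120 CPM, with 103, 95.2 and 109 CPM in WT 1 to 3. The mean over all genes tested, relative to WT, had the same order, at 0.02, -0.05 and 0.03 in GLUT1EC-/- 1 to 3. The summed astrocyte markers did not have it, at 127, 143 and 153 CPM in GLUT1EC-/- 1 to 3. Nor did the sums of the remaining marker lists, such as the cycling markers at 58.7, 17.1 and 46.4 CPM. The part of RNA from astrocytes, fibroblasts, microglia or neurons in the Psat1 and Phgdh counts was not tested.

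The remaining enzymes of the pathway did not follow in step. Psph, which completes serine synthesis, was at 6.94 ± 0.95 and 6.00 ± 0.42 CPM in libraries labelled GLUT1EC-/- and WT (SD, n = 3 each; log2 fold change 0.21). Shmt2 and Mthfd2, which move serine's carbon onto folate in mitochondria, had log2 fold changes of -0.19 and 0.22. Mthfd1l, the mitochondrial formate-releasing enzyme, was at 13.1, 25.8 and 8.28 CPM in GLUT1EC-/- 1 to 3 and 9.22, 9.90 and 8.401 CPM in WT. Its log2 fold change of 0.78 (adjusted p = 0.395 by edgeR) rested on GLUT1EC-/- 2 and was 0.21 without it. Aldh1l2, a mitochondrial folate dehydrogenase, had a log2 fold change of -0.52 at 1.28 to 2.92 CPM in libraries labelled GLUT1EC-/- and 2.78 to 2.98 CPM in WT.

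Among 6 other amino acid, redox and energy genes, 0 passed and no gene had groups apart. Asns, the asparagine synthetase that serves as a standard readout of ATF4, was at 14.5, 19.1 and 13.1 CPM in GLUT1EC-/- 1 to 3 and 12.2, 11.1 and 16.1 CPM in WT (log2 fold change 0.25, 95% interval -0.24 to 0.73, adjusted p = 0.638 by edgeR). The groups overlapped, and the log2 fold change was 0.07 without GLUT1EC-/- 2. Slc7a11, the cystine importer, and Cth, which makes cysteine, had log2 fold changes of 0.40 and 0.14. Slc7a11 was at 10.6 CPM in WT 3 against 23.2 to 29.4 CPM in the other 5 libraries, and its log2 fold change was 0.076 without WT 3 and 0.70 without WT 2. Chac1, a glutathione-degrading enzyme that ATF4 and CHOP induce, was at 9.14, 6.87 and 5.12 CPM in GLUT1EC-/- 1 to 3 and 11.5, 10.8 and 8.72 CPM in WT (log2 fold change -0.55, adjusted p = 0.357 by edgeR), and it overlapped only through GLUT1EC-/- 1 and WT 3. Pck2, the mitochondrial PEP carboxykinase, was at -0.16 and Sesn2, a leucine sensor upstream of mTORC1, at 0.00 (95% interval -0.36 to 0.36) on the log2 fold change scale.

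Of the secreted and surface proteins of the arm, Stc2, a secreted glycoprotein induced by ER stress, was at 3.19, 1.73 and 3.44 CPM in GLUT1EC-/- 1 to 3 and 0.897, 1.75 and 1.72 CPM in WT. GLUT1EC-/- 2 lay among the WT libraries, and the log2 fold change was 0.93 (SE 0.39, adjusted p = 0.324 by edgeR). Vldlr, a lipoprotein receptor that ATF4 induces, had 15.1, 7.29 and 12.05 CPM in GLUT1EC-/- 1 to 3 and 7.77, 8.97 and 8.62 CPM in WT. GLUT1EC-/- 2 was the lowest of the 6, and without it the log2 fold change of 0.44 (adjusted p = 0.492 by edgeR) became 0.68 (adjusted p = 0.0409 by edgeR), while without GLUT1EC-/- 1 it was 0.20.

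**Figure D3:**
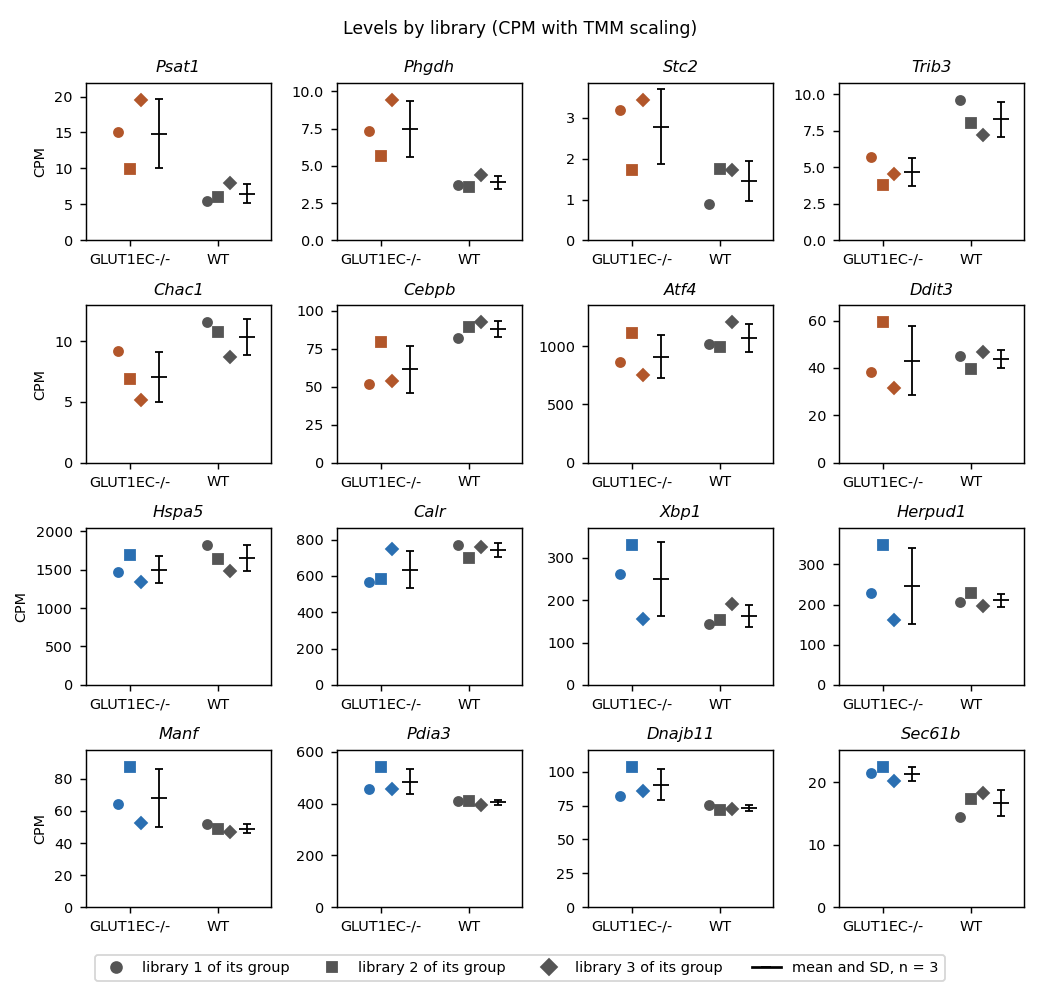
CPM by library (points, y axis from 0) with the mean and SD of 3 libraries (bars) for 16 of the 41 genes, libraries labelled GLUT1EC-/- left of WT; orange marks the ATF4 arm, blue the ER arm and grey WT. Psat1 and Phgdh lie higher and Trib3 and Cebpb lower in each library labelled GLUT1EC-/-, while with this TMM scaling the groups overlap for Atf4, Ddit3, Hspa5, Calr, Xbp1 and Herpud1.

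The abundant chaperones of the ER arm gave no difference past the test, and their groups overlapped. Hspa5, which encodes BiP, the Hsp70 of the ER and the usual readout of the unfolded protein response, was at 1473, 1684 and 1333 CPM in GLUT1EC-/- 1 to 3 and 1825, 1635 and 1482 CPM in WT 1 to 3. The groups overlapped, and the fold change of 0.908 had a 95% interval of 0.714 to 1.16 (adjusted p = 0.709 by edgeR). Hsp90b1, the ER Hsp90, was at 577, 587 and 584 CPM in GLUT1EC-/- 1 to 3 and 600, 557 and 542 CPM in WT, a fold change of 1.03 (95% interval 0.847 to 1.25). Calr, the lectin chaperone calreticulin that binds monoglucosylated proteins, was at 568, 581 and 750 CPM in GLUT1EC-/- 1 to 3 and 773, 699 and 760 CPM in WT (log2 fold change -0.23, SE 0.15, adjusted p = 0.530 by edgeR). Hyou1, a large Hsp70-related chaperone and exchange factor of BiP, had a log2 fold change of 0.11. All 4 chaperones lay within 1.2-fold of WT, with a median log2 fold change of -0.05.

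Per kilobase of exon, Atf4 and Hspa5 had the highest levels of the 41 genes, at a mean of 420 and 372 CPM per kilobase over the 6 libraries. Calr followed, and then Dnajb9, Hsp90b1 and Pdia3 at 174, 142 and 142 CPM per kilobase. The lowest were Aldh1l2, Stc2 and Cth, at 0.323, 0.410 and 0.453 CPM per kilobase. The median WT level was 107 CPM in the ER arm and 11.7 CPM in the ATF4 arm, and the median SE of the log2 fold change was 0.15 and 0.25, so the ER arm was measured more closely.

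Known binding motifs of the regulators stood in different shares of the promoters of the arms. The genes were listed as belonging to these responses, so the shares describe the lists and are no independent result. RefSeq windows (GRCm38.p6, 250 bases before to 50 after the annotated start) matched 37 of the 41 genes, and 10430 tested genes had one. The ER stress response element (ERSE), which ATF6 and the CCAAT-binding factor NF-Y bind together, was searched on both strands as CCAAT, any 9 bases and CCACG. An exact match stood in 7 of 17 genes of the ER arm (41.2%), 0 of 20 of the ATF4 arm and 16 of the 10430 tested genes (0.153%). The 8 sites in those 7 genes are shown because they are the sequence through which ER stress is known to reach the chaperone genes, read on the strand of the motif with the match in capitals and 5 flanking bases on each side.
Hspa5 (chr2:34772020-34772048, plus strand): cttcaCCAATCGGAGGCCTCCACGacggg
Hsp90b1, first site (chr10:86705528-86705556, plus strand): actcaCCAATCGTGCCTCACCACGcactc
Hsp90b1, second site (chr10:86705633-86705661, minus strand): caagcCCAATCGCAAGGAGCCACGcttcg
Calr (chr8:84847070-84847098, plus strand): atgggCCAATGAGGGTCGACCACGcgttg
Dnajc3 (chr14:118937822-118937850, plus strand): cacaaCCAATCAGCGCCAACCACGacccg
Pdia6 (chr12:17266486-17266514, plus strand): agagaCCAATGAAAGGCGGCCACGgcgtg
Syvn1 (chr19:6046527-6046555, plus strand): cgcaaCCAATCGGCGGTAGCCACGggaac
Creld2 (chr15:88819515-88819543, minus strand): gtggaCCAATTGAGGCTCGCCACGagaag
In Hspa5 the site ends 47 bases before the annotated start, as seen in the 160 bases before that start (chr2:34771930-34772089, plus strand), where the capitals mark the match.
Hspa5: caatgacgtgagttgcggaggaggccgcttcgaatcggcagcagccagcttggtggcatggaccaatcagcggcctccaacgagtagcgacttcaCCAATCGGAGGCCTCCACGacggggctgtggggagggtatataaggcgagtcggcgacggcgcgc

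The 7 genes with an exact ERSE had a median log2 fold change of -0.06, from -0.23 to 0.31, with 3 higher by value. The 10 genes of the ER arm with a window and no exact match had a median of 0.31, from -0.23 to 0.62, with 8 higher by value. A total of 9 tested genes outside the 41, among them the lectin chaperone gene Canx and the glycan-assembly gene Alg12, also had a match, and their median was 0.23. A related motif, ERSE-II (ATTGG, any base and CCACG), matched 2 of 17 genes of the ER arm, Herpud1 and Dnajb11, 0 of 20 of the ATF4 arm and 6 of the tested genes (0.0575%). The XBP1 site UPRE was searched only as TGACGTGG, and these exact letters matched 0 genes of either arm and 1.06% of tested genes. Variants of ERSE, ERSE-II and UPRE were not searched, so a member can still carry one, also beside an exact match. No 2 of these sites overlapped, and a match describes letters only. These medians are descriptions, with no test.

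The CARE motif (C/EBP-ATF response element), to which ATF4 binds with a C/EBP partner, was searched on both strands as TGATGNAA. It matched 7 of 20 genes of the ATF4 arm (35%), 1 of 17 of the ER arm (Herpud1) and 303 of the 10430 tested genes (2.91%). The sites of the ATF4 arm are shown in the same way, since they include the gene with the lowest fitted change, Trib3, and the usual ATF4 readout Asns.
Trib3 (chr2:152344034-152344051, plus strand): ccggcTGATGTAAacctg
Chac1 (chr2:119351044-119351061, minus strand): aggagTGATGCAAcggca
Asns (chr6:7693220-7693237, minus strand): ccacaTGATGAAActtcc
Slc7a11, first site (chr3:50443648-50443665, plus strand): catgaTGATGCAAattct
Slc7a11, second site (chr3:50443667-50443684, minus strand): gtggcTGATGCAAacctg
Nupr1 (chr7:126625568-126625585, plus strand): ctgtcTGATGCAAtctgg
Pck2 (chr14:55540158-55540175, minus strand): gatacTGATGTAActttg
Vldlr (chr19:27216815-27216832, minus strand): agcgcTGATGCAActatt
Slc7a11 carries its 2 sites face to face in the 120 bases before its annotated start (chr3:50443614-50443733, minus strand).
Slc7a11: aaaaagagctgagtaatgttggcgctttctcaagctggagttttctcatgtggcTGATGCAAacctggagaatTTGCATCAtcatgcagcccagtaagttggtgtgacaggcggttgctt
The 7 genes with a match had a median log2 fold change of 0.04, from -0.82 for Trib3 to 0.44 for Vldlr, with 4 higher by value. The 13 genes of the arm with a window and no match, Psat1 and Phgdh among them, had a median of 0.00. Over the 303 tested genes with the motif the median was 0.03.

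Cofactors of BiP and the disulfide isomerases included several genes that were higher by value with groups apart. Dnajb11, a J protein that hands unfolded proteins to BiP, was at 82.3, 103 and 85.6 CPM in GLUT1EC-/- 1 to 3 and 75.5, 71.8 and 72.2 CPM in WT. Every library labelled GLUT1EC-/- was above every WT library, and the log2 fold change was 0.31 (SE 0.13, adjusted p = 0.344 by edgeR). Dnajc3, a J protein also known as an inhibitor of eIF2 kinases, was at 152, 192 and 142 CPM in GLUT1EC-/- 1 to 3 and 125, 135 and 133 CPM in WT, likewise with groups apart (log2 fold change 0.31, adjusted p = 0.400 by edgeR). Without GLUT1EC-/- 2 the log2 fold changes of Dnajb11 and Dnajc3 were 0.19 and 0.16. Dnajb9, a J protein that IRE1 signalling induces, leaned the other way, at 420, 466 and 386 CPM in GLUT1EC-/- 1 to 3 and 442, 448 and 499 CPM in WT. Its groups overlapped (log2 fold change -0.13, SE 0.13, adjusted p = 0.700 by edgeR). Sdf2l1, which works with J proteins on BiP clients, was at 7.78, 4.45 and 9.85 CPM in GLUT1EC-/- 1 to 3 and 6.37, 4.09 and 4.63 CPM in WT (log2 fold change 0.55, adjusted p = 0.482 by edgeR), and the log2 fold change was 0.28 without GLUT1EC-/- 3.

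Pdia3, the isomerase that acts on glycoproteins with calreticulin and calnexin, was at 455, 542 and 458 CPM in GLUT1EC-/- 1 to 3 and 408, 411 and 393 CPM in WT. The groups did not overlap, and the log2 fold change was 0.26 (SE 0.13, adjusted p = 0.418 by edgeR), or 0.17 without GLUT1EC-/- 2. Pdia4 and Pdia6, other isomerases of the BiP complex, had log2 fold changes of -0.23 and 0.07. Pdia4 was at 76.5, 39.6 and 92.4 CPM in GLUT1EC-/- 1 to 3 and between 80.7 and 83.3 CPM in WT, so GLUT1EC-/- 2 alone gave it its sign, and without that library the log2 fold change was 0.04. Exons of Pdia3 and Pdia6 share positions with a coding gene on the other strand, as do those of 7 other members, Cebpb, Shmt2, Manf and Ddit3 among them. The kit is stranded, but the strand setting of the counting is not given in the sources used here, so these counts are uncertain. On the same strand, Manf shares exon positions with the coding gene Rbm15b, and Ddit3 with another entry of its own symbol.

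Xbp1 and the genes of degradation and translocation included several of the largest fitted changes of the arm, with GLUT1EC-/- 2 the highest library for Xbp1, Sel1l, Herpud1 and Sec61b. Xbp1, whose spliced form drives chaperone and degradation genes, was at 263, 331 and 156 CPM in GLUT1EC-/- 1 to 3 and 143, 154 and 192 CPM in WT 1 to 3. GLUT1EC-/- 3 lay inside the WT range, and the log2 fold change was 0.62 (SE 0.26, 95% interval 0.02 to 1.22, adjusted p = 0.331 by edgeR). It was 0.36 without GLUT1EC-/- 2 and 0.86 without GLUT1EC-/- 3. Plasma cells are rich in Xbp1, and 7 plasma and B cell markers summed to 38.3, 69.6 and 29.1 CPM in GLUT1EC-/- 1 to 3 and 26.4, 31.6 and 30.8 CPM in WT. Sdc1, which other cells also express, made up most of the sums in GLUT1EC-/- 1 to 3, at 29.7, 65.0 and 23.9 CPM. In WT 1 to 3 it stood at 10.9, 16.3 and 14.0 CPM. The list's median log2 fold change was -1.36, 1 marker of 6 tested fell by edgeR (Cd79a, log2 fold change -1.54) and 0 rose, and Igj and 2010001M09Rik (Mzb1) were at 0 in GLUT1EC-/- 2 and under 1 CPM in the others. Their part in the Xbp1 level was not tested. The counts cover the whole gene, which GRCm38 places at 5520659 to 5525893 on chromosome 11, plus strand, and do not tell the spliced mRNA from the unspliced.

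Of 5 genes of ER-associated degradation and translocation, 0 passed and 4 were higher by value, with a median of 0.32. Sel1l, the scaffold of the main degradation ligase, was at 124, 166 and 115 CPM in GLUT1EC-/- 1 to 3 and 107, 107 and 105 CPM in WT, with groups apart (log2 fold change 0.34, SE 0.16, adjusted p = 0.384 by edgeR, and 0.16 on the log2 scale without GLUT1EC-/- 2). Syvn1, the ligase itself, had a log2 fold change of -0.09. Herpud1, a membrane protein of the ligase complex, was at 229, 349 and 161 CPM in GLUT1EC-/- 1 to 3 and 207, 228 and 196 CPM in WT. Its highest and lowest libraries were both labelled GLUT1EC-/-, and the log2 fold change of 0.23 turned to -0.12 without GLUT1EC-/- 2. Edem1, which directs misfolded glycoproteins to degradation, had a log2 fold change of 0.32 (adjusted p = 0.446 by edgeR). Sec61b, a subunit of the channel that takes new proteins into the ER, was at 21.4, 22.5 and 20.2 CPM in GLUT1EC-/- 1 to 3 and 14.4, 17.3 and 18.4 CPM in WT, with groups apart (log2 fold change 0.36, SE 0.15, adjusted p = 0.331 by edgeR).

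Manf and Creld2, secreted ER proteins that stress induces, differed from each other. Manf was at 64.1, 87.4 and 52.5 CPM in GLUT1EC-/- 1 to 3 and 51.8, 48.5 and 46.6 CPM in WT. Groups were apart by less than 1 CPM (log2 fold change 0.47, SE 0.19, adjusted p = 0.302 by edgeR), and the log2 fold change was 0.25 without GLUT1EC-/- 2. Creld2 was at 26.7 ± 1.5 CPM in libraries labelled GLUT1EC-/- and 27.8 ± 4.4 CPM in WT (SD, n = 3 each). In all, groups were apart for 6 of 19 genes of the ER arm, all 6 higher, against 11.7% of all genes tested that were apart and higher. In the ATF4 arm they were apart for 4 of 22, 2 higher and 2 lower, where 11.2% of all genes were apart and lower. With library size alone as the scaling, the same 10 genes were apart in the same direction. Atf4, Hspa5 and Dnajb9 were then apart and lower as well. Of all 14838 genes tested, 1498 were apart and higher and 1803 apart and lower with that scaling.

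The libraries labelled GLUT1EC-/- differed more among themselves than the WT libraries did. The coefficient of variation was larger among them for 33 of the 41 genes, with a median of 22.4% against 8.89% in WT, and it was larger for 10850 of all 14838 genes, with medians of 20.6% and 11.1%. GLUT1EC-/- 2 was the highest of the 6 libraries for 9 of 19 genes of the ER arm and the lowest for 8 of 22 of the ATF4 arm. The same shares over all genes tested were not counted, so these counts are not read as traits of the arms. In GLUT1EC-/- 1, 2 and 3, 11, 9 and 11 of the 19 genes of the ER arm lay above all WT libraries and 5, 4 and 4 below. Of the 22 genes of the ATF4 arm, 9, 8 and 11 lay above and 7, 11 and 6 below. Over all 14838 genes tested, 4574, 5870 and 4686 lay above all WT libraries and 4511, 6027 and 4432 below. The heat map of members by library shows these patterns.

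**Figure D4:**
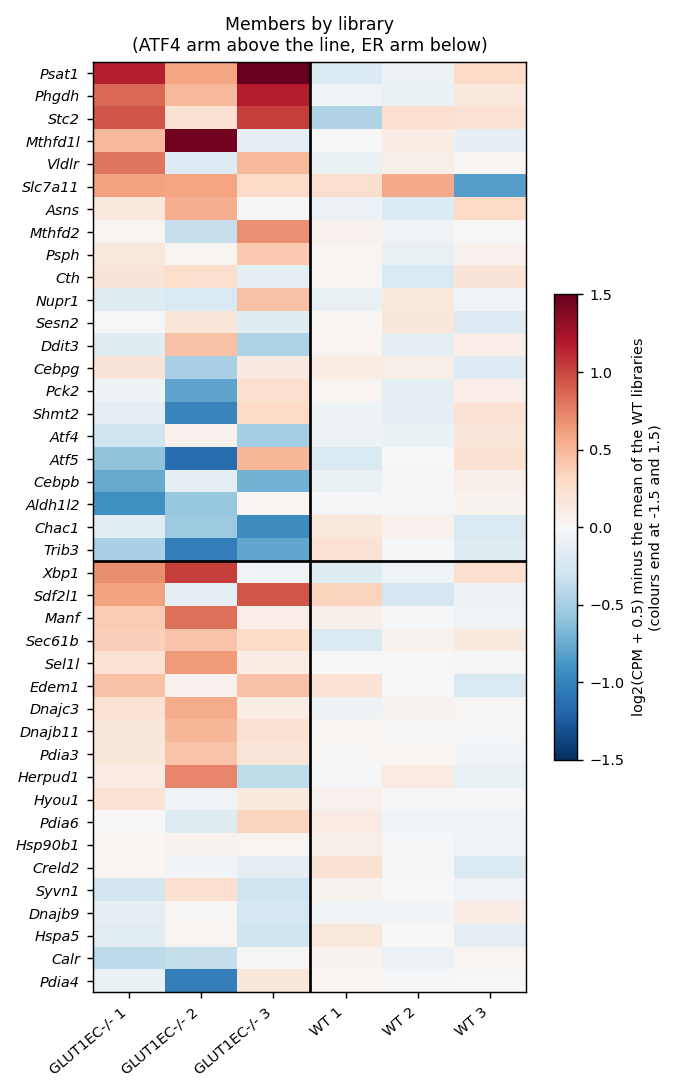
Colour gives log2(CPM + 0.5) minus the WT mean for each of the 41 genes (rows, sorted by fitted change within each arm) in each library (columns, those labelled GLUT1EC-/- left of WT); red is higher and blue lower. GLUT1EC-/- 2 is the highest library for 9 of 19 genes of the ER arm, and GLUT1EC-/- 3 for 9 of 22 of the ATF4 arm, with Psat1 and Phgdh at the top. Such shares were not counted over all genes tested.

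The rest of the pathway, taken as 8 lists of 154 genes, gave no call either: 0 of 152 tested genes passed in either direction. At an unadjusted p under 0.05 there were 27, 23 of them higher by value, where 14.5% of all genes reached it and 8.16% were higher. DESeq2 called 5 of the wider genes, at a background of 5.93%, and limma-voom called 0. Their median log2 fold change was 0.09. Among 19 stress sensors and eIF2 control genes the median was 0.05. Atf6, the ER membrane sensor that is cleaved to a transcription factor, was at 98.7, 122 and 85.0 CPM in GLUT1EC-/- 1 to 3 and 78.9, 82.7 and 69.6 CPM in WT (log2 fold change 0.40, adjusted p = 0.302 by edgeR, and 0.25 on the log2 scale without GLUT1EC-/- 2). Impact, an inhibitor of the amino acid sensor kinase GCN2, stood at 33.1 ± 5.6 CPM in libraries labelled GLUT1EC-/- and 46.2 ± 5.5 CPM in WT (SD, n = 3 each), a log2 fold change of -0.48 (adjusted p = 0.235 by edgeR).

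Among 19 further ATF4-linked genes the median was 0.13, and the gene nearest to a call was Eif4ebp1, the translation repressor 4E-BP1 and an ATF4 target. It was at 17.6, 18.9 and 18.2 CPM in GLUT1EC-/- 1 to 3 and 9.62, 11.4 and 12.1 CPM in WT. Groups lay well apart with little spread in either, and the log2 fold change was 0.72 (SE 0.16, adjusted p = 0.0770 by edgeR). DESeq2 called it (adjusted p = 0.00129). Gdf15, a stress-induced hormone, had a log2 fold change of 0.56 (adjusted p = 0.446 by edgeR), which was 0.14 without GLUT1EC-/- 2. The 20 cytosolic aminoacyl-tRNA synthetases, many of them ATF4 targets, lay close to WT, with a median of 0.01 and a range from -0.32 for Farsb to 0.33 for Vars.

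The machinery that attaches sugar chains held the highest fitted changes of these lists. Of 36 genes of N-glycan assembly and transfer, 0 passed, 24 were higher by value and the median was 0.08. Stt3b, a catalytic subunit of the oligosaccharyltransferase, was at 207, 459 and 189 CPM in GLUT1EC-/- 1 to 3 and 106, 115 and 117 CPM in WT. Every library labelled GLUT1EC-/- was above every WT library, with GLUT1EC-/- 2 far above the rest, and the log2 fold change was 1.34 (SE 0.32, adjusted p = 0.1002 by edgeR). Without GLUT1EC-/- 2 it was 0.81 at an adjusted p of 0.00340 by edgeR. Nus1, a subunit of the enzyme that makes dolichol, the lipid carrier of the sugar chain, was at 104, 193 and 72.2 CPM in GLUT1EC-/- 1 to 3 and 56.2, 60.7 and 48.9 CPM in WT (log2 fold change 1.15, SE 0.32, adjusted p = 0.150 by edgeR). Without GLUT1EC-/- 2 it was 0.67 (adjusted p = 0.0466 by edgeR), and DESeq2 called both genes (adjusted p = 0.00181 and 0.0133).

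Most genes were also higher by value in the lists for folding, degradation and entry into the ER. Among 18 glycoprotein and oxidative folding genes, 13 were higher, with a median of 0.10. Dnajc10, an ER disulfide reductase, was at 215, 183 and 193 CPM in GLUT1EC-/- 1 to 3 and 131, 133 and 118 CPM in WT (log2 fold change 0.64, SE 0.13, adjusted p = 0.0598 by edgeR, DESeq2 adjusted p = 0.000366). Txndc5, another ER thioredoxin-like protein, had a log2 fold change of 0.58 (adjusted p = 0.183 by edgeR), or 0.36 without GLUT1EC-/- 2. Of 16 tested genes of ER-associated degradation, 15 were higher by value (median 0.16), with H47, now named Selenos, and Nploc4 at 0.65 and 0.57, or 0.37 and 0.23 without GLUT1EC-/- 2. Over all genes tested, 7647 of 14838 were higher by value. Of 15 translocon and signal peptidase genes, 14 were higher by value (median 0.23), with Ssr3 and the channel subunit Sec61a1 at 0.74 and 0.60, or 0.32 and 0.38 without GLUT1EC-/- 2. The 10 mitochondrial chaperones and proteases had a median of -0.02, with Dnaja3 and Trap1 lowest at -0.34 and -0.31, or -0.12 and -0.10 without GLUT1EC-/- 2. GLUT1EC-/- 2 was the highest of the 6 libraries for Stt3b, Nus1, Txndc5, H47, Nploc4, Ssr3 and Sec61a1.

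**Figure D5:**
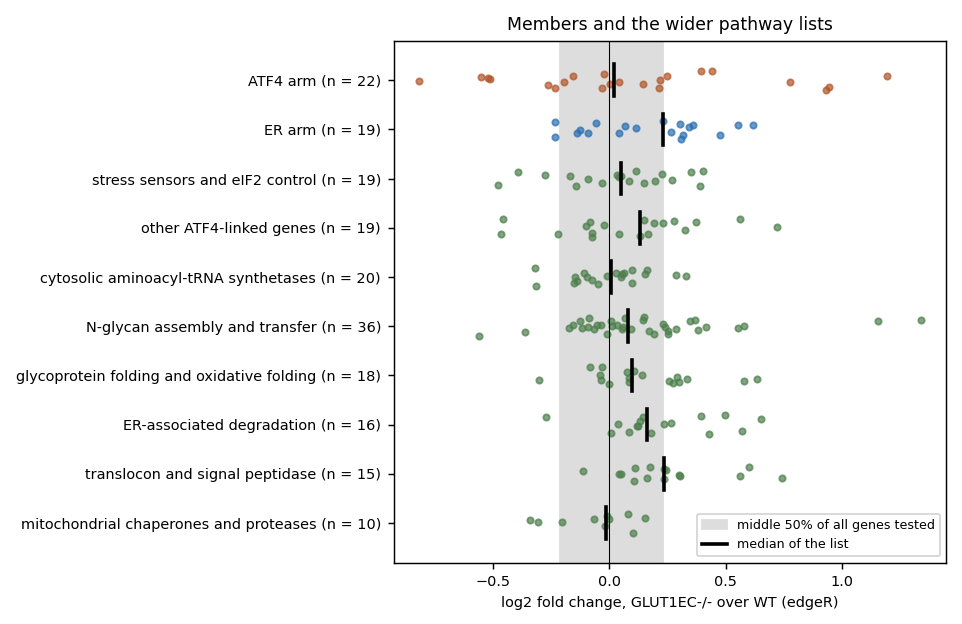
Fitted log2 fold change, libraries labelled GLUT1EC-/- over WT (x axis), of each tested gene (points) in the 2 arms and the 8 wider lists (y axis); black bars mark the median of each list and the grey band the middle 50% of all 14838 genes, -0.21 to 0.23. The medians of the ER arm (0.23) and of the translocon list (0.23) are the highest, and Stt3b and Nus1 lie farthest out among the N-glycan genes.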

How the data were processed

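Stranded mRNA libraries (Illumina TruSeq, single-end 100 bp on a NovaSeq) were made from 6 samples, per the labels' protocols. The deposited values are raw counts per gene symbol, and the submitters' processing notes name STAR, featureCounts and GRCm38. Versions, annotation and strand setting are not given in the sources used here. Libraries were grouped by the genotype label, 3 a group. The animals of GLUT1EC-/- 1, WT 1 and WT 2 are numbered in the 200s. Those of GLUT1EC-/- 2, GLUT1EC-/- 3 and WT 3 are numbered in the 500s, so this number series is partly confounded with genotype. The labels pair no animals across groups, and nothing shows which share a litter.

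Counts were tested with edgeR 4.0.16 (R 4.3.3; quasi-likelihood F test, TMM scaling, filterByExpr with a minimum count of 10 and a minimum total of 15, robust dispersions), with genotype as the only term and Benjamini-Hochberg adjustment over 14838 genes. The biological coefficient of variation was 23.2%. The SE of a log2 fold change was taken as its size over the root of the F statistic. Exon lengths and positions come from GENCODE M21 (GRCm38), promoter windows from RefSeq. No same-group libraries agreed within counting noise (chi-square per degree of freedom 12.8 to 192). The members, lists and alternatives were chosen with earlier results of these data known. Values by library are given for called genes, for Atf4, Ddit3, Asns, Hspa5 and Xbp1, for the 5 largest changes and 3 highest levels per arm, and for groups that do not overlap; those of other members were added after their values were seen. From each wider list the 2 largest changes at a mean of at least 1 CPM are named; Alg12, Canx and the astrocyte genes were named after their values were seen. Alternatives were scaling by RLE, by upper quartile or by library size alone, other filters, DESeq2 1.42.0, limma-voom (limma 3.58.1), the animal number series or sex (read from Xist and Ddx3y, 1 male library a group) as a term, an adjusted p under 0.1 and each library left out. On counts simulated for the 14838 genes, edgeR recovered 94.0%, 50.7% and 16.7% of genes changed 4-fold, 2-fold and 1.5-fold. The simulated dispersion was the same in both groups, with no outlying library. In the data the libraries labelled GLUT1EC-/- spread more than WT, so these shares need not hold there.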

Additional observations from a re-analysis of the deposited data

How the results depend on the processing

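With 3 libraries a group, the number of genes called moved with the tool and with single libraries. edgeR called 194 genes, DESeq2 879, edgeR with the animal number series as a term 14, with sex as a term 113, and at an adjusted p under 0.1 it called 429. Leaving out each library gave 0 to 862 (32 without GLUT1EC-/- 1, 862 without GLUT1EC-/- 2, 283 without GLUT1EC-/- 3, and 0, 1 and 5 without WT 1, 2 and 3). The cause was not tested. Members of the ATF4 arm called numbered 0 in edgeR, 3 in DESeq2, 1 at an adjusted p under 0.1 and 0 to 4 with a library left out. Members of the ER arm called numbered 0 under each of these alternatives. Genes of the wider lists called numbered 0 in edgeR, 5 in DESeq2, 2 at an adjusted p under 0.1 and 0 to 7 with a library left out. The ER arm's median of 0.23 was 0.17 with upper-quartile scaling, 0.15 with library size alone, 0.16 in limma-voom, 0.15 within animals numbered in the 200s and 0.16 to 0.27 with a library left out. The ATF4 arm's median was -0.01 to 0.08 and the difference between the arms -0.27 to -0.08 with a library left out. Chosen after seeing the data, library size alone put the ER arm's score above the WT range in 2 libraries labelled GLUT1EC-/-, not 3. The ATF4 arm's score lay above it in 2 under both scalings. The mean over all genes tested also lay above its WT range in GLUT1EC-/- 1 and 3 under both scalings. Groups were apart for 8 in place of 6 members of the ER arm and 5 in place of 4 of the ATF4 arm. Over all 14838 genes tested, 1498 were apart and higher and 1803 apart and lower with library size alone. With TMM scaling these were 1738 and 1663.

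Of 855 values of 57 named genes under alternatives, 810 kept their sign and their side of the threshold, 17 passed it and 28 changed sign. The log2 fold change of Cebpg was 0.073, of Nupr1 -0.011 and of Creld2 0.023 with the number series as a term. That of Sesn2 was -0.040 with upper-quartile scaling, -0.056 with library size alone, -0.0073 with no filter and -0.0014 at a minimum of 1 CPM in 3 libraries, and that of Hsp90b1 was -0.0075 with library size alone. With a library left out, the log2 fold change ran from -0.87 to 0.034 for Atf5, -0.33 to 0.16 for Ddit3, -0.15 to 0.15 for Cebpg, -0.22 to 0.16 for Nupr1, -0.52 to 0.083 for Shmt2, -0.16 to 0.44 for Mthfd2, -0.0078 to 0.30 for Cth, -0.40 to 0.081 for Pck2, -0.10 to 0.087 for Sesn2, -0.49 to 0.040 for Pdia4, -0.088 to 0.17 for Pdia6, -0.12 to 0.46 for Herpud1, -0.30 to 0.00093 for Syvn1 and -0.16 to 0.059 for Creld2. No paired analysis was possible because the labels give no number or litter that links animals across the groups.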
